A study of Homo sapiens with 9 samples.

Results

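A set of 4 small RNA entries that carry miRNA names but have been described as fragments of tRNA or of other structured RNA was followed in Jurkat cells: hsa-miR-4521, hsa-miR-1246, hsa-miR-4454 and hsa-miR-1260a, written below without the species prefix. They were taken by mature name from the raw count table and make up 4 of its 2883 rows, 1 row each. All 4 are among the 701 rows that passed the filter on low counts, although miR-1260a had reads in only 4 of 9 libraries. The set was selected on its counts in these same libraries, in particular on the lower counts of miR-4521 at 5 h and 12 h, so the levels and changes of its members are given as a description, with no test.

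Jurkat clone E6-1 is an established human T lymphoblast line. Untreated control cells (0 h) were compared with cells activated for 5 h and 12 h on plates coated with anti-CD3 antibody at 10 µg/mL, with anti-CD28 antibody at 5 µg/mL in the medium. CD3 relays the signal of the T cell receptor, and CD28 is a costimulatory receptor. Each time had 3 biological replicates, all of 1 line, and no untreated cells were collected at 5 h or 12 h, so activation and time in culture cannot be told apart.

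A tRNA gene is transcribed by RNA polymerase III into a precursor with a leader at its 5′ end and a trailer at its 3′ end that runs to a stretch of U. The leader is cut off by RNase P and the trailer by RNase Z, and the bases CCA are then added to the mature 3′ end. Short RNAs are also cut from mature tRNAs and from spliceosomal RNAs such as U2, and several of them were first catalogued as miRNAs. miR-4521 has since been described as the trailer of a serine tRNA precursor, miR-1246 as a piece of U2, miR-4454 as the 3′ end of a histidine tRNA, and miR-1260a as the 3′ end of a leucine tRNA.

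The mature sequences are shown because they carry these resemblances. They are RefSeq's, 5′ to 3′, with the seed (bases 2 to 8) in capitals.
miR-4521: gCUAAGGAaguccugugcucag
miR-1246: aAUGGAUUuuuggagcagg
miR-4454: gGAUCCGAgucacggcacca
miR-1260a: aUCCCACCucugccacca
miR-1260b: aUCCCACCacugccaccau
No 2 of the 4 entries share a seed. Among the 2365 of 2654 mature names in the table that matched a RefSeq sequence, the seeds of miR-4521, miR-1246 and miR-4454 occurred in no other name. The seed of miR-1260a occurred in 1 other, miR-1260b, which differs from it over the 18 shared positions by U9A (counted from 1 at the 5′ end) and is longer by its final base. miR-4454 and miR-1260a both end in CCA, as do 45 (1.90%) of the 2365 sequences.

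MIR4521 (ENSG00000283160.1) is on the plus strand at chr17:8186945-8187004 of GRCh38, and no other GENCODE gene spans it. The RefSeq gene of a serine tRNA, TRS-GCT4-3, ends at base 8186947, so that the annotated hairpin begins inside its last 3 bases and the mature sequence (8186948 to 8186969) begins at the very next base. The hairpin is shown with the mature sequence in capitals, because both of its borders bear on the resemblance to a trailer.
MIR4521: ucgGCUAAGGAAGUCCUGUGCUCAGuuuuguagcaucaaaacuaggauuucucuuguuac
The mature sequence is followed directly by UUUU. That motif, read on the hairpin's own strand, stood directly after the mature sequence in 21 (0.976%) of 2152 pairs of hairpin and mature miRNA. A gene of another tRNA, TRT-AGT1-1, begins at 8187160, on the far side of the hairpin. Of 1850 precursors of the table with a GENCODE position, MIR4521 was the only one that overlapped any of 465 RefSeq tRNA genes, and 3 lay within 1000 bases of one. The RefSeq table used here gives no strand for the tRNA genes.

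**Figure D1:**
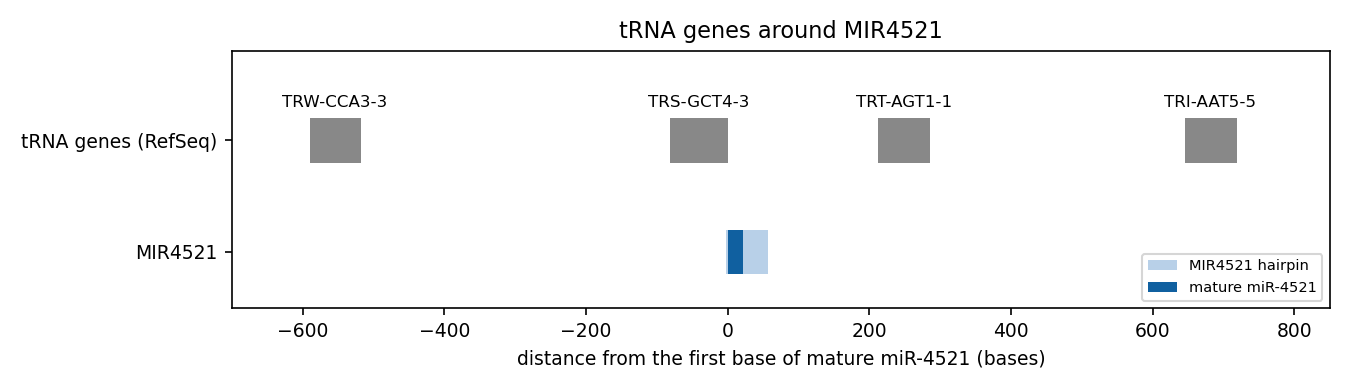
Position of MIR4521 among RefSeq tRNA genes. The horizontal axis is the distance in bases from the first base of mature miR-4521, grey bars are tRNA genes, the pale bar is the annotated hairpin and the dark bar the mature sequence. The dark bar begins where TRS-GCT4-3 ends.

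MIR1246 (ENSG00000283203.1) is on the minus strand at chr2:176600980-176601052 and lies in no other GENCODE gene. U2, the RNA that pairs with the branch point of introns, holds the same 19 bases, and its stretch from base 71 to base 130 in RNU2-1 (chr17:43233787-43233977, minus strand) is shown with the shared bases in capitals.
RNU2-1: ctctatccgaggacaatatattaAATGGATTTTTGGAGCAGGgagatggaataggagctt
MIR1246: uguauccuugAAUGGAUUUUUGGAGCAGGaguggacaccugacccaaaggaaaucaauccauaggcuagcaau
The shared run is exactly the mature sequence, bases 94 to 112 of RNU2-1, and ends with it on both sides. It was found in 19 of 1900 snRNA genes of GENCODE, all of them among the 90 U2 genes and U2-like copies, and in no other transcript besides the MIR1246 hairpin. Of all 2365 mature sequences, 15 (0.634%), miR-1246 included, occurred whole in a transcript annotated as snRNA, snoRNA, scaRNA, rRNA, mitochondrial RNA or another structured RNA. How reads matching both places were assigned is not given in the sources used here, so counts of miR-1246 cannot be split between MIR1246 and U2.

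MIR4454 (ENSG00000283468.1) is on the minus strand at chr4:163093574-163093628, in no other GENCODE gene. MIR1260A (ENSG00000221754.1) is on the plus strand at chr14:77266218-77266290, opposite the 3′ UTR in the last exon of NGB, the gene of neuroglobin. Neither mature sequence was found whole in any GENCODE transcript other than its own hairpin. Nuclear tRNA sequences were not analysed here, so the resemblance of these 2 to tRNA was not measured beyond their CCA ends.

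The annotated hairpins of all 4 are weakly folded for miRNA genes. Drosha and Dicer cut a miRNA precursor at its folded stem. How the precursors of these 4 are cut was not tested. The minimum free energy predicted by RNAfold was -17.1 kcal/mol for MIR4521, -18.6 for MIR1246, -14.2 for MIR4454 and -20.2 for MIR1260A. Per base this is -0.28 for MIR4521, -0.25 for MIR1246, -0.26 for MIR4454 and -0.28 for MIR1260A, against a median of -0.46 over 1850 hairpins. Only 107 (5.78%) of those hairpins were less stable per base than MIR4521, 82 (4.43%) less than MIR1260A, 55 (2.97%) less than MIR4454 and 52 (2.81%) less than MIR1246. Within the predicted structures, 68.2% of the bases of mature miR-4521 were paired and 66.7% of those of miR-1260a, whereas the median over 2493 pairs of hairpin and mature miRNA was 83.3%. miR-4454 had 75.0% paired, and miR-1246, at 84.2%, was near the median.

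**Figure D2:**
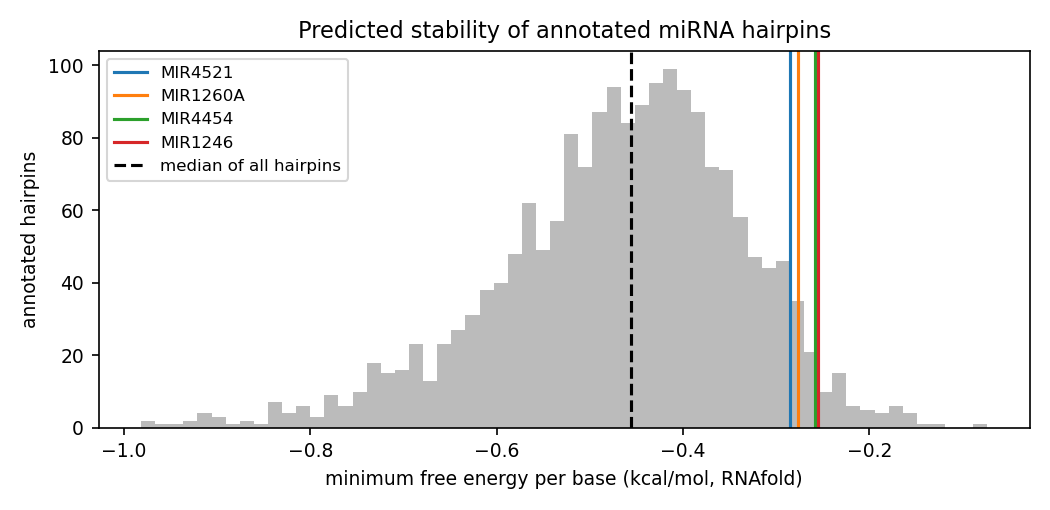
Predicted minimum free energy per base (kcal/mol, horizontal axis) of 1850 annotated miRNA hairpins, as a histogram. The 4 coloured lines are the hairpins of the entries described, between -0.28 and -0.25, and the dashed line is the median of all hairpins, -0.46.

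Table totals were 6631839 to 16207031 counts per library, and a count of 3, taken as the detection floor, corresponds to 0.176 to 0.471 CPM (counts per 1000000 after TMM scaling), which covers counting error only. The totals, and those behind CPM, count a mature miRNA once for each of its precursor rows. With each mature miRNA counted once, totals were 4232272 to 10450005. Replicate 3 of 0 h and replicate 3 of 12 h were the shallowest libraries. Replicate 3 of 12 h also stood apart: it held the highest value of 28 (20.1%) of the 139 rows that averaged 100 CPM or more, and the other libraries held that of 10 to 19 rows each. miR-142-3p, found in blood cells in general, had 7764 ± 293, 9693 ± 306 and 10153 ± 755 CPM at 0 h, 5 h and 12 h (SD, n = 3). Against 0 h its edgeR adjusted p was 0.253 at 5 h and 0.0647 at 12 h, where DESeq2 gave 0.00844. miR-150-5p, found in lymphocytes, had 271 ± 9.71, 259 ± 25.9 and 246 ± 14.7 CPM. Of the markers of other cells, miR-124-3p (neuron) and miR-1-3p (muscle) had 0 counts and miR-144-3p (erythroid) 2 counts in all. miR-451a (erythroid) had 6.11 ± 2.38, 6.24 ± 3.06 and 4.72 ± 3.07 CPM at 0 h, 5 h and 12 h, miR-223-3p (myeloid) 120 ± 13.02, 133 ± 11.7 and 149 ± 7.74 CPM, and miR-122-5p (liver) 1.40 ± 1.21, 23.0 ± 37.9 and 7.94 ± 1.71 CPM. The 5 h mean of miR-122-5p came mostly from replicate 3, with 66.8 CPM, while replicates 1 and 2 had 2.05 and 0.205 CPM. At 12 h replicates 1, 2 and 3 had 8.81, 9.03 and 5.96 CPM of miR-122-5p, and at 0 h they had 0, 2.06 and 2.13 CPM. The part of these markers of other cells in the results was not tested.

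miR-4521, the entry next to the serine tRNA gene, had counts of 3646, 3563 and 2086 in replicates 1, 2 and 3 at 0 h. It had 979, 733 and 1414 at 5 h and 342, 342 and 231 at 12 h. Scaled, these were 234, 272 and 318 CPM at 0 h, 91.4, 75.2 and 83.0 CPM at 5 h, and 25.5, 28.9 and 36.3 CPM at 12 h. The 3 times did not overlap: the lowest control library was above every 5 h library, and the lowest 5 h library was above every 12 h library.

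Unactivated cells averaged 275 ± 41.7 CPM of miR-4521, cells at 5 h 83.2 ± 8.06 CPM and cells at 12 h 30.2 ± 5.48 CPM (SD, n = 3). Its log2 change was -1.72 (SE 0.19) at 5 h and -3.19 (SE 0.20) at 12 h against 0 h, which left 30.3% and 11.0% of the starting level. Between 5 h and 12 h it was -1.47 (SE 0.19), or 36.2% of the 5 h level. Spread over the hours between samplings, the log2 level changed by -0.34 per hour from 0 h to 5 h and by -0.21 per hour from 5 h to 12 h. Its rank by mean CPM among mature miRNAs, each counted once, went from 82 at 0 h to 130 at 5 h and 171 at 12 h.

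Of the 4 entries, miR-4521 alone met the threshold of an edgeR adjusted p of 0.05. It did so in every comparison, and the other 3 met it in none. Over all tested rows the threshold was met by 1.57% at 5 h and 1.43% at 12 h against 0 h, and by 0.571% between 12 h and 5 h. In the lower direction alone these shares were 0.143%, 0.428% and 0.428%. It was likewise the only 1 of the 4 whose libraries did not overlap between times, against 10.8% of rows at 5 h, 12.1% at 12 h and 12.8% between 12 h and 5 h. Since the entry was chosen with these changes in view, nothing is read from the counts. The 5 h and 12 h comparisons share the 0 h libraries.

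**Figure D3:**
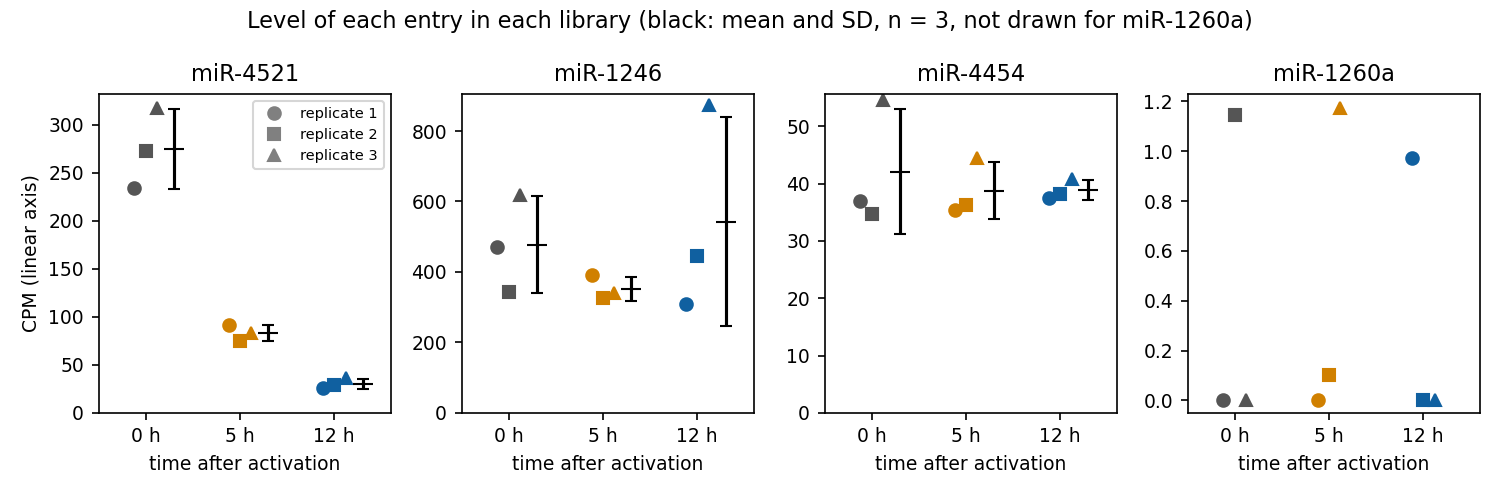
CPM (linear vertical axis) of the 4 entries in each of the 9 libraries, by time after activation. Symbols are replicates, black bars the mean and SD of 3 libraries. The libraries of miR-4521 lie at 234 to 318 CPM at 0 h, 75.2 to 91.4 at 5 h and 25.5 to 36.3 at 12 h, and those of miR-1246 and miR-4454 overlap between times.

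A ratio of 2 entries within a library does not depend on how libraries are scaled. The raw counts of miR-1246 were 2.01, 1.26 and 1.95 times those of miR-4521 in the 3 libraries at 0 h, 4.28, 4.32 and 4.10 times at 5 h, and 12.0, 15.5 and 24.1 times at 12 h. The ratio of miR-4454 to miR-4521 was 0.158, 0.127 and 0.172 at 0 h, 0.388, 0.483 and 0.537 at 5 h, and 1.47, 1.32 and 1.13 at 12 h. Both ratios were without overlap between times, and miR-4454, the rarer of the pair in every library at 0 h and 5 h, was the more abundant in every library at 12 h. Both have miR-4521 as denominator, which was chosen for its lower counts at 5 h and 12 h, so nothing is read from their separation. The ratio of miR-1246 to miR-4454, which leaves miR-4521 out, had a mean of 11.3 ± 1.44 at 0 h, of 9.21 ± 1.71 at 5 h and of 13.8 ± 6.87 at 12 h (SD, n = 3), with overlap between all times.

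**Figure D4:**
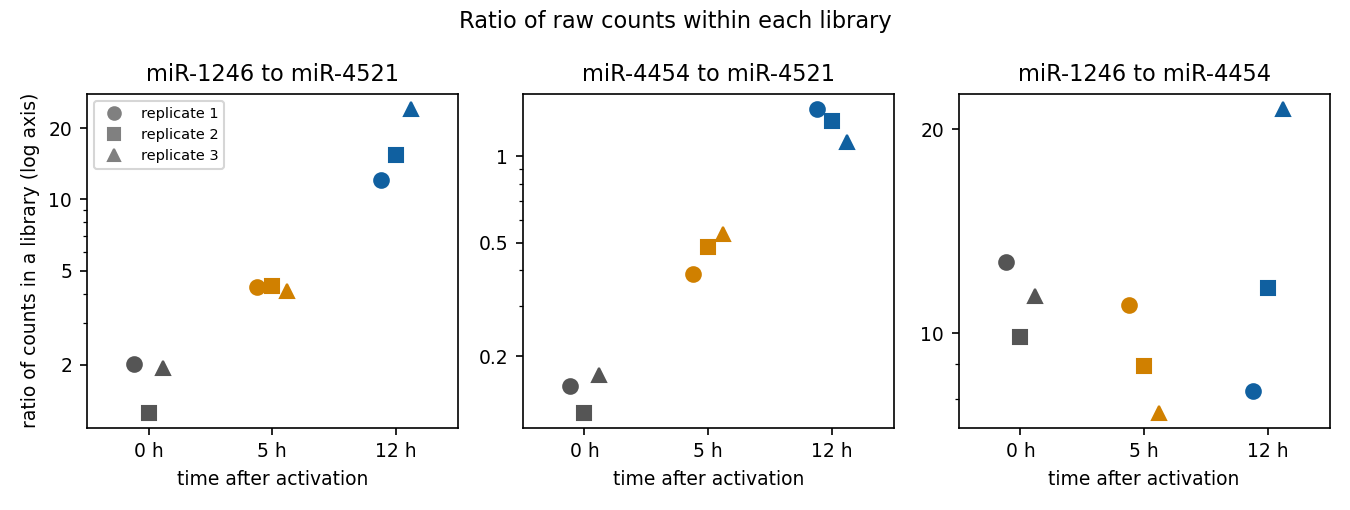
Ratio of the raw counts of 2 entries within each library (log vertical axis), by time after activation, with 1 symbol per replicate. Ratios to miR-4521 lie higher at each later time, from 1.26 to 2.01 at 0 h up to 12.0 to 24.1 at 12 h for miR-1246, and the ratio of miR-1246 to miR-4454 overlaps between times.

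miR-1246, the entry that matches U2, was the most abundant of the 4 by mean at every time, with 44008 counts in all. It had 472, 342 and 619 CPM in replicates 1, 2 and 3 at 0 h, 391, 325 and 340 CPM at 5 h, and 308, 446 and 875 CPM at 12 h. The groups overlapped in each comparison, and the highest value at 0 h and at 12 h was in the shallowest library of that time.

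The means of miR-1246 were 477 ± 138, 352 ± 34.5 and 543 ± 296 CPM (SD, n = 3). Its log2 change was -0.44 (SE 0.27) at 5 h and 0.18 (SE 0.27) at 12 h against 0 h, and 0.62 (SE 0.27) between 5 h and 12 h. Replicate 3 of 12 h set the sign against 0 h: without it the log2 change was -0.38 (SE 0.22) against 0 h and 0.08 (SE 0.22) against 5 h. Its median coefficient of variation over the 3 times was 28.96%, higher than that of each of the 100 rows nearest to it in level, whose median was 11.2%. For miR-4521 the median was 15.2%, against 14.3% for its 100 nearest rows, and for miR-4454 it was 12.9%, against 20.2%.

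miR-4454, which ends in CCA, had 37.0, 34.6 and 54.5 CPM at 0 h, 35.5, 36.3 and 44.5 CPM at 5 h, and 37.5, 38.2 and 40.8 CPM at 12 h. These came from 260 to 759 counts per library. All libraries but replicate 3 of 0 h lay between 34.6 and 44.5 CPM, and the times overlapped.

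Its means were 42.1 ± 10.9, 38.8 ± 5.00 and 38.8 ± 1.74 CPM (SD, n = 3). The log2 change of miR-4454 was -0.11 (SE 0.24) at 5 h and at 12 h against 0 h, and 0.00 (SE 0.24) between 5 h and 12 h. Without replicate 3 of 0 h these 2 values against 0 h changed sign, to 0.11 at 5 h and 0.12 at 12 h. By rank among mature miRNAs it was at 159, 165 and 155 at the 3 times.

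miR-1260a, which also ends in CCA, was near the detection floor. It had 15 counts in replicate 2 of 0 h, 1 and 20 counts in replicates 2 and 3 of 5 h, 13 counts in replicate 1 of 12 h, and 0 in the other 5 libraries. The group sums were 15, 21 and 13 counts, and at each time all or nearly all of them came from a single library. The fitted changes therefore rest on single libraries (SE 2.79 to 2.80 on the log2 scale), and a difference between times was not detectable at this depth. miR-1260b, the entry with the same seed, was as rare, with 49 counts over 9 libraries, and did not pass the filter.

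Summed, the 4 entries held between 0.0611% and 0.145% of the counts of a library, with each mature miRNA counted once. At 0 h the share was 0.118%, 0.0999% and 0.145% in replicates 1, 2 and 3, at 5 h 0.0828%, 0.0665% and 0.0765%, and at 12 h 0.0611%, 0.0799% and 0.143%. All 3 libraries at 5 h were below all 3 at 0 h, while the 12 h libraries spanned nearly the whole range. The sum includes miR-4521, chosen for its lower counts at 5 h and 12 h, so nothing is read from this separation. The share of miR-1246 alone overlapped between 0 h and 5 h, with 0.0526% in replicate 2 of 0 h and 0.0625% in replicate 1 of 5 h.

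Other entries that have been described as pieces of structured RNA were taken from 3 lists. Of the list of other tRNA fragments, the table as analysed here holds miR-1260b. Of the list for ribosomal RNA, nuclear or mitochondrial, the table as analysed here holds miR-663a, miR-663b, miR-3648 and both arms of miR-4485. These had 0 counts in all 9 libraries. This allows up to 0.471 CPM in the shallowest if reads matching such RNA were counted. Whether they were is not given in the sources used here. Of the list of entries inside small nucleolar RNAs, which guide the chemical modification of ribosomal RNA, the table as analysed here holds 7. Of these, miR-664b-3p had 0 counts in every library and miR-664a-3p had 37 counts in 4 libraries, and the other 5, all at low levels, passed the filter.

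None of these 5 met the edgeR threshold in any comparison, and DESeq2 called 0 of them. At an unadjusted edgeR p of 0.05, 1 of 5 passed at 5 h, 1 at 12 h and 0 between 12 h and 5 h, where 42, 51 and 43 of the 701 rows passed. Their median log2 change was -0.32 at 5 h, -0.38 at 12 h and 0.33 between 12 h and 5 h. Over all rows it was 0.03, 0.01 and -0.03. In the same order the 5 rows ranged from -1.35 to 0.54, from -0.48 to 1.04 and from -0.69 to 2.14, so they did not share a direction. miR-1291, within the snoRNA gene SNORA2C, had 7.83 ± 0.741, 11.4 ± 5.61 and 14.3 ± 3.67 CPM at the 3 times (SD, n = 3; log2 change 0.87 at 12 h, edgeR adjusted p = 0.661). miR-3651, within SNORA84, had 9.72 ± 5.79, 3.81 ± 1.35 and 6.97 ± 0.191 CPM (log2 change -1.35 at 5 h, edgeR adjusted p = 0.694). miR-664a-5p, within SNORA36B, had 12.7 ± 9.15, 15.4 ± 5.62 and 9.54 ± 0.333 CPM (log2 change -0.43 at 12 h, edgeR adjusted p = 0.974). miR-664b-5p and miR-1248 had means of 5.89 to 7.67 and 0.946 to 4.21 CPM. Their log2 changes were -0.32 (SE 0.66) and -1.10 (SE 1.56) at 5 h, and -0.38 (SE 0.66) and 1.04 (SE 1.54) at 12 h. miR-1291 was at 0.54 (SE 0.41) and miR-664a-5p at 0.26 (SE 0.49) at 5 h, and miR-3651 was at -0.48 (SE 0.54) at 12 h. By annotation, 6 tested rows other than miR-4521 had a precursor that overlaps a structured RNA gene, and 7 other than miR-1246 had a mature sequence found whole in one. These sets are not separate: both hold the 5 rows above, the 6 are all among the 7, and only miR-6516-5p and miR-1843 are added. Of both sets 0 rows met the edgeR or the DESeq2 threshold. The 1 row that passed at an unadjusted edgeR p of 0.05 was miR-3651 at 5 h and miR-1291 at 12 h, the same as among the 5. Of the 8 tested rows, members left out, whose mature sequence ends in CCA, 0 met either threshold in any comparison and 0 passed at an unadjusted edgeR p of 0.05.

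**Figure D5:**
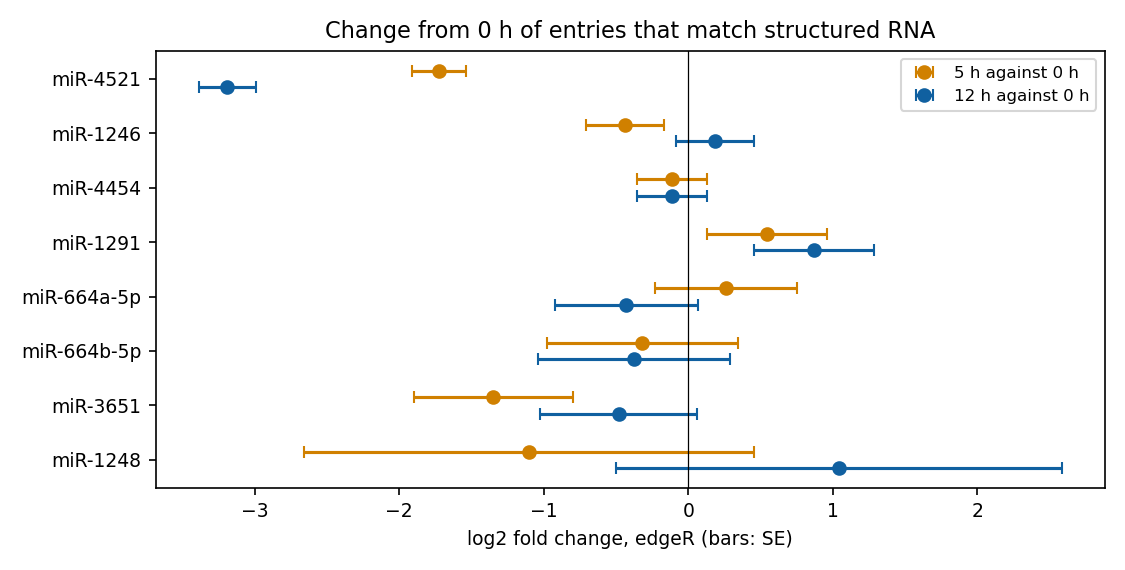
Log2 fold change from 0 h (horizontal axis, points with SE bars from edgeR) of 3 of the entries and of 5 entries within snoRNAs, at 5 h and 12 h. miR-4521 lies at -1.72 and -3.19, and miR-1246 and miR-4454 between -0.44 and 0.18. miR-1260a is left out, since its fitted change rests on single libraries.

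The rows most like each entry over the 9 libraries were found by Pearson's r of log2 CPM among the 282 other rows that averaged 10 CPM or more. The libraries share their scaling and depth, and r is given as a description. Nearest to miR-4521 was miR-296-3p (r = 0.96), with 115, 114 and 113 CPM in replicates 1, 2 and 3 at 0 h, 103, 80.3 and 93.9 CPM at 5 h, and 64.4, 65.9 and 63.6 CPM at 12 h. Its log2 change was -0.31 at 5 h (edgeR adjusted p = 0.736) and -0.82 at 12 h (adjusted p = 0.0148), smaller in size than that of miR-4521 at both times. Next came miR-25-5p (r = 0.83), miR-20b-3p, miR-92b-5p (both r = 0.82) and miR-92a-2-5p (r = 0.81), with log2 changes at 12 h of -0.99, -0.41, -0.65 and -1.36. Of these, miR-25-5p met the edgeR threshold at 12 h (adjusted p = 0.0210) and the other 3 did not (adjusted p = 0.136 to 0.661).

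Nearest to miR-1246 was miR-181a-5p (r = 0.98 for both of its precursor rows), a miRNA that tunes T cell receptor sensitivity. It had 41682 CPM in replicate 3 of 12 h, where miR-1246 was highest too, and 25491 to 32248 CPM in the other libraries. The r was 0.98 without that library and 0.97 without both shallow libraries. The others were miR-93-5p (r = 0.96), miR-3200-5p (0.95) and miR-425-3p (0.95), with r of 0.85, 0.92 and 0.83 without both shallow libraries. Nearest to miR-4454 were miR-10a-5p (r = 0.89), miR-1304-3p (0.81), miR-148b-5p (0.75), miR-7706 (0.73) and miR-671-3p (0.70). For miR-1260a, with reads in 4 libraries, the nearest were miR-140-5p (r = 0.90), miR-29b-3p (0.88) and miR-450a-5p (0.88), among 283 rows. None of the precursors of these similar rows overlaps an annotated structured RNA gene.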

How the data were processed

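Small RNA was sequenced from 9 samples of total RNA with RealSeq kits, per the labels. The authors deposited raw counts per pair of precursor and mature miRNA. They also deposited log2 normalised values, which differ by at most 5.05e-09 from log2 of 1 plus the count over a library factor. Those values cover 430 rows and were used in an alternative. The submitters' processing notes name GRCh38.p13 and DESeq2. For the aligner and the counter, a name is not given in the sources used here. Biological replicates of 1 line were taken from the labels, and no 2 libraries of a group agreed within sampling noise (chi-square over degrees of freedom of 66.2 or more).

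Of 1214 rows above 0, 701 passed filterByExpr (minimum count 10, minimum total 15). Counts were scaled by TMM and fitted with edgeR 4.0.16 (R 4.3.3, quasi-likelihood, 1 mean per time over 9 libraries), with Benjamini-Hochberg adjustment over all 701 rows and a threshold of 0.05. SEs derive from its test. DESeq2 1.42.0 and limma 3.58.1 were alternatives, as were other scalings and filters, only the 2 groups compared, a replicate block, no other structured RNA entries, and each library left out. Tested on simulated data for 12 h against 0 h, the fit recovered 96% of 200 rows changed 4-fold among 701, and 3.03% of its calls were false. The changed rows were drawn from those averaging at least 10 CPM, so recovery at lower levels, as of miR-1260a, was not measured.

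The members and lists were chosen with earlier results of these data known. Named beside the members were list entries of at least 10 CPM or past the threshold, and the 5 rows nearest in pattern. Other list entries and the cell markers were named after their values were seen. miR-760, miR-4638 and miR-1843 were in no list and were named from their position or sequence. Sequences are RefSeq's (GRCh38.p14) and GENCODE 29's; MIR positions were equal in both for the 4 entries. Folding used RNAfold 2.7.2, and figures Python 3.11.15 and matplotlib 3.10.9.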

Additional observations from a re-analysis of the deposited data

How the results depend on the processing

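miR-4521 was lower at each later time under all 63 combinations of comparison and alternative run. Its log2 change ranged from -1.83 to -1.60 at 5 h, from -3.37 to -3.03 at 12 h, and from -1.63 to -1.30 between 5 h and 12 h. With single libraries left out, that of miR-1246 ranged from -0.67 to -0.21, from -0.38 to 0.43 and from 0.085 to 0.88 in the same comparisons, that of miR-4454 from -0.27 to 0.11, from -0.28 to 0.12 and from -0.05 to 0.10, and that of miR-1260a from -2.71 to 5.38, from -5.19 to 4.95 and from -5.35 to 2.45. Without both shallow libraries, an alternative chosen after seeing the data together with 1 row per mature miRNA, miR-4454 was at 0.12 at 5 h and miR-1246 at 0.086 between 5 h and 12 h. The numbers of rows called, 11, 10 and 4, became 17 at 5 h and 12 between 12 h and 5 h with no filter on low counts, 5 and 6 at 5 h and 12 h with limma on the authors' log2 values, and 6 at 12 h with only the 2 groups compared. With single libraries left out they ranged from 9 to 11, 8 to 10 and 3 to 10, the last without replicate 1 of 12 h. The causes were not tested. With the replicate block, 13, 11 and 11 rows were called, and miR-4521 was at -1.71, -3.19 and -1.48. Over 139 rows of at least 100 CPM, deviations from the mean of each time correlated from -0.57 to 0.62 between same-numbered libraries. Of these 9 pairs, 3 were above 0.1, and libraries of different numbers correlated from -0.72 to 0.72. Deviations of 3 libraries from their own mean are tied to each other, so this cannot decide whether same-numbered libraries shared a batch. With upper quartile factors the median row was at 0.17 at 12 h against 0 h, and miR-4454 was at 0.05. Depth limits miR-1260a, whose counts were 20 or fewer in each library. It passed neither the stricter filter nor the filter with only the 2 groups compared, and the authors' log2 values do not list it, so these alternatives gave no value for it.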

Other observations

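Besides miR-4521, 2 precursors lay within 1000 bases of a RefSeq tRNA gene. miR-760, whose precursor lies 662 bases from TRR-TCT1-1, had 122 to 382 counts per library and 22.5 ± 3.42, 25.3 ± 4.35 and 17.6 ± 2.56 CPM at 0 h, 5 h and 12 h (SD, n = 3), and did not meet the edgeR threshold (log2 change 0.17 at 5 h, adjusted p = 0.996, and -0.36 at 12 h, adjusted p = 0.922). The arms of miR-4638, whose precursor lies 99 bases from TRV-CAC1-5, had 16 and 46 counts in all and reads in 3 libraries each. miR-1843, a mature sequence found whole in the scaRNA SCARNA3, had 16.4 ± 6.57, 20.7 ± 2.79 and 17.4 ± 3.02 CPM and did not meet the threshold either (edgeR adjusted p = 0.996 at 5 h and 0.992 at 12 h). Entries whose mature sequence occurs whole in mitochondrial RNA (miR-12136, miR-1973, miR-4284 and miR-4485-3p) had 0 counts in every library. Whether reads matching mitochondrial RNA were counted is not given in the sources used here.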
